A study of Mus musculus with 12 samples.

Results

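L803mts was compared directly with ketamine in mouse hippocampus, using 6 of the 12 RNA-seq libraries of the series. Both agents bear on glycogen synthase kinase 3 (GSK3), and the study sought targets shared by treatments that lower GSK3 signalling. The 3 L803mts libraries came from C57BL/6 mice given 60 µg of L803mts intranasally, in 5 µL into each nostril on alternate days over 3 days. The 3 ketamine libraries came from C57BL/6 mice given 10 mg/kg ketamine intraperitoneally and sampled at 24 h. The 3 control libraries, shown here only as a reference level, came from C57BL/6 mice given intranasal vehicle on the L803mts schedule. Drug, route, schedule and time of sampling therefore cannot be told apart in this contrast, and the labels give no age or sex. The labels do not say whether replicates came from separate mice, so p-values measure the spread between these libraries, which may be technical.

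GSK3 is a serine/threonine kinase with the forms GSK3α and GSK3β. It is active at rest, marks β-catenin for destruction, and is held back by upstream kinases of the insulin, growth factor and neurotrophin pathways. L803mts is a cell-permeable peptide that competes with GSK3 substrates, whereas ketamine blocks the channel of NMDA-type glutamate receptors. Synaptic activity switches on immediate early genes in neurons within minutes, among them transcription factors such as Npas4 and Egr3, and this induction depends in part on the factor CREB, which binds the cAMP response element.

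The authors deposited the L803mts and ketamine libraries in separate tables of FPKM (fragments counted per unit of transcript length and per library total), each beside the same 3 control libraries. Tables were normalised separately, and a gene can have transcript models of different extent in them. Of 17394 loci in the L803mts table and 17864 in the ketamine table, 12758 could be joined one to one by gene name, gene type and overlapping position. The contrast covers the 7031 joined loci (55.1%) whose control mean differed by at most 10% between tables and whose mean over the 6 treated libraries was at least 1 FPKM. Just inside the limit on controls lay Ube2a, with control means of 16.2 and 14.5 FPKM, and just outside it Rint1, with 14.2 and 15.7 FPKM. Just inside the limit on level lay Haus6, with a mean of 1.00 FPKM over the treated libraries, and just outside it Grpr, with 0.995 FPKM. A control library listed in both tables differed by a median of 0.01 to 0.02 and an SD of 0.0703 to 0.0745 on the log2(FPKM + 1) scale over the kept loci. These loci were kept because their control means agreed. The closeness therefore follows from the limit and does not measure how well the tables compare. Depth cannot be given, since FPKM values hold no read numbers. The median FPKM over kept loci lay between 12.3 and 12.7 in the 6 libraries. L803mts replicate 3 stood apart, with the highest of the 6 values at 23.2% and the lowest at 31.1% of loci, against 12.8% to 18.6% and 7.57% to 17.6% in the other libraries.

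Markers of hippocampal neurons were present in every library. Neurod6, a transcription factor of excitatory neurons, stood at 899.6, 983 and 940.3 FPKM in L803mts replicates 1, 2 and 3 and at 833, 1243 and 1544 FPKM in ketamine replicates 1, 2 and 3. Prox1, the marker of dentate granule cells, stood at 12.03, 15.5 and 24.1 FPKM after L803mts and at 14.6, 20.7 and 24.0 FPKM after ketamine. Defining markers of neighbouring tissue were present too. Ttr, the transthyretin gene of choroid plexus, stood at 1376, 2308 and 2164 FPKM after L803mts and at 2044, 1635 and 223 FPKM after ketamine, so that ketamine replicate 3 was far below the rest. In whole tissue, fewer cells of a type and less RNA per cell cannot be told apart.

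No locus passed the test between L803mts and ketamine (limma on log2(FPKM + 1), 3 against 3 libraries, Benjamini-Hochberg over 7031 loci, adjusted p of at most 0.05; 0% called in either direction). The smallest adjusted p was 0.177, at the pseudogene Gm16247. At an unadjusted p under 0.05 stood 498 loci (7.08%) with the higher level in L803mts and 376 (5.35%) with the higher level in ketamine. The groups did not overlap, all 3 libraries of one lying above all 3 of the other, at 740 loci (10.5%) in the L803mts direction and 608 (8.65%) in the ketamine direction. An unadjusted p under 0.05 and groups without overlap came together at 404 (5.75%) and 309 (4.39%) loci. Fitted differences were split evenly, with 51% of loci higher in L803mts and a median difference of 0.01. The difference reached 1 on the log2(FPKM + 1) scale, in either direction, at 26 loci, 12 higher in L803mts and 14 higher in ketamine. The median standard error was 0.15 and the median half-width of the 95% confidence interval 0.33, so that smaller differences were not resolved at most loci. For a single gene the smallest p of an exact two-sided permutation test is 0.1 with 3 against 3 libraries. Because no locus passed, every difference named from here on is a description of these libraries.

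**Figure D1:**
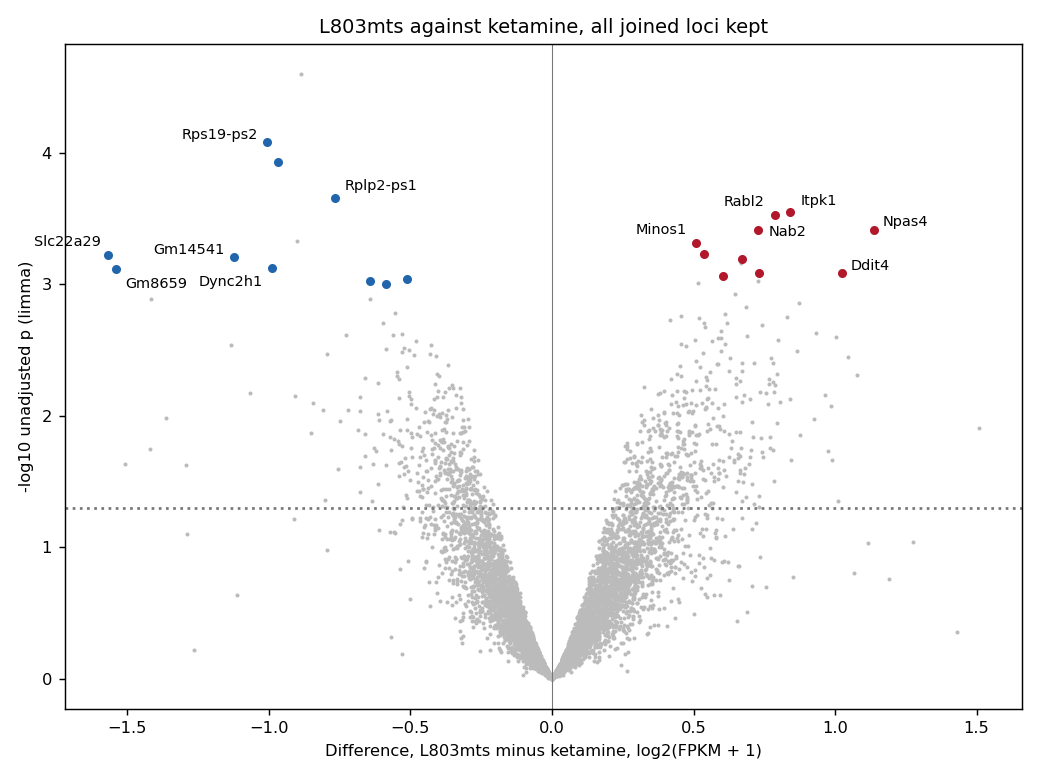
Difference between L803mts and ketamine (x axis, L803mts minus ketamine, log2(FPKM + 1)) against the -log10 of the unadjusted limma p (y axis) for the 7031 kept loci. The dotted line marks an unadjusted p of 0.05, and coloured points are the 10 loci of smallest p with an official symbol in each direction, red for higher in L803mts and blue for higher in ketamine. No point passed Benjamini-Hochberg adjustment.

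The 10 loci of smallest p with an official symbol and the higher level in L803mts were Itpk1, Rabl2, Npas4, Nab2, Minos1, Cox6a1, Pck2, Prnp, Ddit4 and Sv2a. Their groups did not overlap, and none was called (adjusted p 0.277 each). Npas4, an activity-dependent transcription factor that promotes inhibitory synapse formation, stood at 2.69, 1.81 and 3.57 FPKM in L803mts replicates 1, 2 and 3 and at 0.815, 0.654 and 0.480 FPKM in ketamine replicates 1, 2 and 3. All ketamine libraries lay below all L803mts libraries and also below the control libraries, which had 1.68, 0.971 and 2.59 FPKM in the L803mts table. The ratio of group means was 4.14 and the difference 1.14 ± 0.21 (SE, log2(FPKM + 1), n = 3 and 3, limma unadjusted p 0.000383). In the authors' deposited tables, where both comparisons share the control libraries, the log2 fold change of Npas4 was 0.62 for L803mts (FDR 0.429) and -1.40 for ketamine (FDR 0.0157).

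Ddit4 encodes an inhibitor of mTOR complex 1 that is induced by glucocorticoids and energy stress. It stood at 8.57, 7.52 and 12.7 FPKM after L803mts and at 3.11, 5.01 and 4.38 FPKM after ketamine, with control libraries at 4.27, 4.06 and 5.07 FPKM. The ketamine libraries overlapped the control range and the L803mts libraries lay above it. The ratio of means was 2.30 and the difference 1.02 ± 0.21 (SE, limma adjusted p 0.277). The authors' deposited tables gave Ddit4 a log2 fold change of 1.10 (FDR 0.0119) for L803mts and -0.10 (FDR 0.9997) for ketamine, against the same controls.

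Prnp, the prion protein gene, and Cox6a1, a subunit of cytochrome c oxidase, had the ketamine libraries as the lowest of the 3 groups. Prnp stood at 63.3, 47.6 and 65.0 FPKM after L803mts, at 33.3, 30.4 and 40.8 FPKM after ketamine and at 48.0, 60.8 and 76.2 FPKM in controls. Cox6a1 stood at 75.8, 75.7 and 75.1 FPKM after L803mts, at 57.6, 45.9 and 52.5 FPKM after ketamine and at 78.7, 73.9 and 87.7 FPKM in controls. For both genes the L803mts libraries lay within or near the control range. In the authors' deposited table for ketamine the log2 fold change was -0.80 for Prnp (FDR 0.0157) and -0.54 for Cox6a1 (FDR 0.113).

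Itpk1, a kinase of inositol phosphate metabolism, had the opposite order, with ketamine near controls. It stood at 34.0, 28.0 and 38.5 FPKM after L803mts, at 21.5, 16.1 and 17.2 FPKM after ketamine and at 20.4, 15.5 and 19.0 FPKM in controls. Minos1, a subunit of the complex that shapes the inner mitochondrial membrane, stood at 85.3, 90.3 and 90.5 FPKM after L803mts, at 56.7, 63.0 and 66.6 FPKM after ketamine and at 63.7, 64.1 and 68.2 FPKM in controls. Nab2, a co-repressor of EGR transcription factors, stood at 92.5, 72.5 and 104 FPKM after L803mts and at 57.1, 51.4 and 51.3 FPKM after ketamine. Its control libraries were spread over 74.5, 40.8 and 35.8 FPKM, so the reference level of Nab2 is uncertain. Rabl2, a small GTPase of ciliary transport, had ratio 1.84 between the group means, Pck2, the mitochondrial form of phosphoenolpyruvate carboxykinase, 1.64, and Sv2a, a synaptic vesicle glycoprotein, 1.55. Over these 10 genes the control mean of the L803mts table lay between the treated means at 7, above both at 2 (Cox6a1 and Prnp) and below both at 1 (Nab2).

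The 10 loci of smallest p with an official symbol and the higher level in ketamine were Rps19-ps2, Rps19-ps1, Rplp2-ps1, Slc22a29, Gm14541, Dync2h1, Gm8659, Hs3st4, Lpar6 and Pkia (limma adjusted p 0.276 to 0.277). Gm16247 had a smaller p but was not among these 10, since its name did not count as an official symbol. Here too the groups did not overlap at any of the 10, and the control mean lay between the treated means at 9 and above both at Lpar6. Many of these loci are not ordinary coding genes. Rps19-ps1, Rps19-ps2 and Rplp2-ps1 are named as ribosomal protein pseudogenes, Gm14541 and Gm8659 are listed as pseudogenes, and the Hs3st4 locus is listed as intronic. Reads of pseudogenes can also come from near-identical copies, so these levels are uncertain, and Rps19-ps1 and Rps19-ps2 with their nearly equal values are best read as a single measurement. Rps19-ps2 stood at 8.45, 8.69 and 8.58 FPKM after L803mts, at 14.8, 22.4 and 18.2 FPKM after ketamine and at 11.1, 9.36 and 7.497 FPKM in controls. The parent gene Rps19, which encodes a protein of the small ribosomal subunit, had a difference of 0.30 in the other direction (unadjusted p 0.0672).

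Slc22a29, an organic anion transporter family member whose locus is listed as mixed type (chr19:8050309-8349531, NCBIM37), had the largest difference of the ketamine-higher loci named here. It stood at 4.33, 12.4 and 4.62 FPKM after L803mts and at 21.8, 22.5 and 18.6 FPKM after ketamine, a ratio of ketamine to L803mts means of 2.94 and a difference of -1.57 ± 0.31 (SE, limma adjusted p 0.277). L803mts replicate 2 was apart from replicates 1 and 3 and close to control replicate 2, since controls stood at 7.74, 12.3 and 5.23 FPKM. AC122119.1, a locus listed as miRNA that lies beside it (chr19:8033941-8034769) and was singled out after its values were seen, had the same library pattern, with 6.50, 18.3 and 7.04 FPKM after L803mts and 29.7, 28.5 and 23.4 FPKM after ketamine. Gm14541, on the X chromosome, repeated it with 14.1, 28.8 and 15.5 FPKM after L803mts and 41.7, 41.6 and 41.0 FPKM after ketamine. Gm16247, also singled out for its p, stood at 24.2, 30.1 and 23.6 FPKM after L803mts and at 49.5, 48.8 and 47.3 FPKM after ketamine, with L803mts replicate 2 again the highest of its group. Without L803mts replicate 2, 10 loci were called, 8 of them higher in ketamine, and at all 8 that replicate was the highest L803mts library. At Nab2 and Rpsa-ps10, called higher in L803mts, it was the lowest. A locus gains a call mostly where the library left out lay towards the other group. The pattern therefore follows largely from the selection, and these calls are no support for the loci. Among the 8 were Slc22a29 (difference -2.00, adjusted p 0.00225), Gm14541 (-1.43, 0.00225), AC122119.1 (-1.85, 0.00225) and Gm16247 (-0.99, 0.0171), all from limma with Benjamini-Hochberg adjustment.

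Coding genes among the ketamine-higher loci included Lpar6, a lysophosphatidic acid receptor, at 108, 150.4 and 116 FPKM after L803mts and 189, 212 and 181 FPKM after ketamine. Its control libraries reached higher, at 172, 341 and 188 FPKM. Pkia, an inhibitor of cAMP-dependent protein kinase, stood at 81.6, 76.2 and 59.8 FPKM after L803mts and at 104, 108 and 114 FPKM after ketamine, with controls at 97.0, 103 and 86.1 FPKM in the L803mts table. In the ketamine table the same controls stood at 106, 107 and 101 FPKM and overlapped the ketamine libraries. The Dync2h1 locus, named for the heavy chain of the dynein of ciliary transport, is a short segment (chr9:6928112-6928609, NCBIM37) and stood at 1.06, 1.46 and 1.51 FPKM after L803mts and at 3.25, 2.88 and 5.02 FPKM after ketamine. The intronic locus of Hs3st4, a heparan sulfate sulfotransferase gene, had a ratio of ketamine to L803mts means of 1.44, and the pseudogene Gm8659 3.36.

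Ketamine replicate 1 set apart a further group of loci, singled out after their values were seen. Mif, a cytokine with tautomerase activity, stood at 75.1, 73.1 and 81.2 FPKM after L803mts and at 61.1, 35.1 and 35.8 FPKM after ketamine. Camk2n2, an inhibitor of CaMKII, stood at 65.3, 55.5 and 75.9 FPKM after L803mts and at 59.6, 24.5 and 26.1 FPKM after ketamine, with ketamine replicate 1 inside the L803mts range. Without that replicate 3 loci were called by limma with Benjamini-Hochberg adjustment, namely Mif (difference 1.09), Camk2n2 (1.33) and, higher in ketamine, Nrg3 (-2.29), each at an adjusted p of 0.0364. These calls, too, were gained by leaving out a library that lay towards the other group. Nrg3, a ligand of the receptor ERBB4, stood at 0.0377, 3.21 and 5.57 FPKM in ketamine replicates 1, 2 and 3 and at most 0.244 FPKM in L803mts.

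Loci were also counted by the gene type given in the tables. Of 5613 protein-coding loci, 439 (7.82%) were higher in L803mts and 255 (4.54%) higher in ketamine at an unadjusted p under 0.05, near the 7.08% and 5.35% of all loci. Of 255 pseudogenes, 9 (3.53%) were higher in L803mts and 28 (11%) higher in ketamine. Unannotated loci that the tables list as novel_lincRNA had 6 (2.38%) and 30 (11.9%) of 252, and those listed as novel_antisense 0 and 15 (13.3%) of 113. The median difference was 0.02 for protein-coding loci, -0.07 for pseudogenes, -0.05 for novel_lincRNA and -0.11 for novel_antisense. The difference between gene types was not tested.

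**Figure D2:**
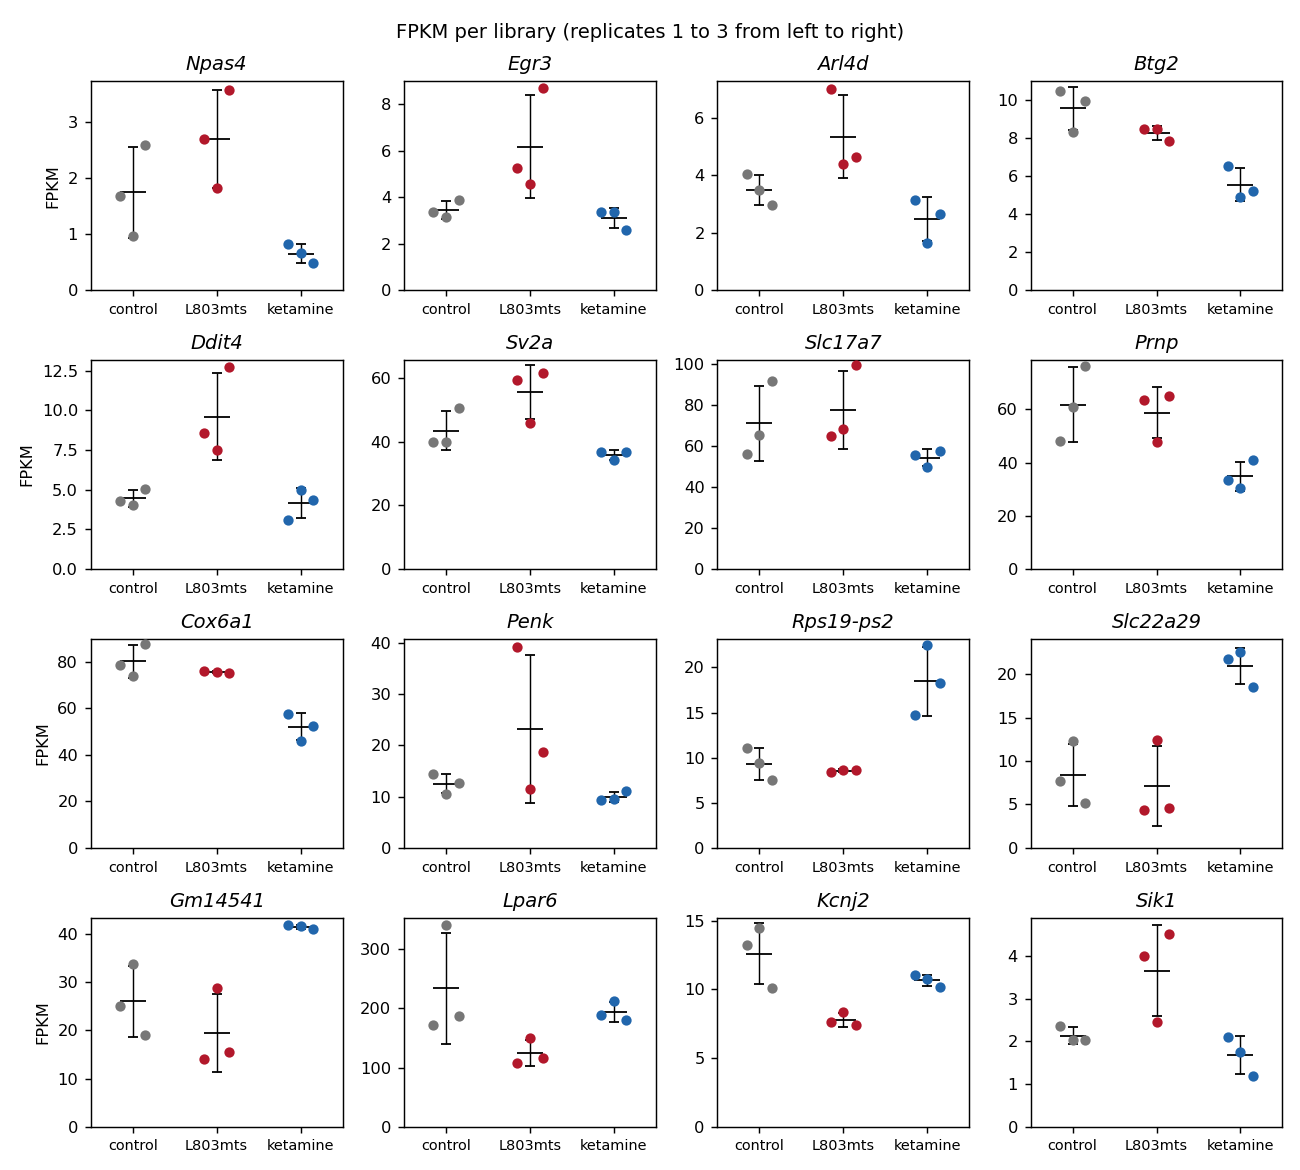
FPKM (y axis) of 16 genes in the 3 control libraries of the L803mts table (grey), the 3 L803mts libraries (red) and the 3 ketamine libraries (blue, from the separately normalised ketamine table), with horizontal marks and bars for the mean ± SD and replicates 1 to 3 from left to right. The L803mts and ketamine libraries do not overlap in any panel, and ketamine lies below all controls for Npas4, Btg2, Prnp, Cox6a1 and Sv2a.

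The tolerance on controls left out 3 loci that were called when it was widened from 10% to 25% (9390 loci tested, limma adjusted p 0.0451 each). Rerg, a RAS-like growth inhibitor regulated by estrogen, stood at 21.0, 18.6 and 34.6 FPKM after L803mts and at 5.53, 5.77 and 6.07 FPKM after ketamine. Its 3 L803mts libraries lay far above the other groups, with control means of 6.01 and 5.19 FPKM in the L803mts and ketamine tables, and the ratio of treated means was 4.27 (difference 1.87 ± 0.21, SE). Plxdc1, a plexin domain protein of blood vessels, stood at 5.11, 5.43 and 5.61 FPKM after L803mts and at 1.88, 1.33 and 1.25 FPKM after ketamine, with control means of 1.60 and 1.36 FPKM. The Plxdc1 locus spans chr11:97785213-97817881 in the L803mts table and chr11:97785621-97799880 in the ketamine table (NCBIM37), so its FPKM rest on different transcript models. Bak1, a pro-apoptotic member of the BCL2 family, stood at 4.74, 4.77 and 5.91 FPKM after L803mts and at 11.4, 14.01 and 13.1 FPKM after ketamine, with control means of 5.77 and 4.90 FPKM. All ketamine libraries of Bak1 were above all L803mts libraries (difference -1.17 ± 0.14, SE).

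Transcripts of the target kinase had overlapping levels in the groups, with the intervals given here as the limit of what was resolved. Gsk3b stood at 17.3, 18.2 and 22.2 FPKM after L803mts and at 16.5, 18.4 and 18.0 FPKM after ketamine, a difference of 0.11 with a 95% interval of -0.17 to 0.39. Gsk3a stood at 20.6, 17.7 and 21.2 FPKM after L803mts and at 16.7, 18.2 and 17.6 FPKM after ketamine, a difference of 0.17 with an interval of -0.08 to 0.42. The groups overlapped for both genes. The Gsk3b locus is a short segment (chr16:38243242-38247469, NCBIM37), so its values cover that segment only. Of 20 genes of GSK3 and the β-catenin destruction complex 8 were kept, none with an unadjusted p under 0.05, and their median difference was 0.18 against 0.01 over all loci. Btrc, the ubiquitin ligase subunit that recognises phosphorylated β-catenin, stood at 41.1, 36.7 and 40.6 FPKM after L803mts and at 35.6, 31.7 and 33.5 FPKM after ketamine. Dpysl2, a GSK3 substrate that binds tubulin, stood at 118, 106 and 133 FPKM after L803mts and at 103, 106 and 102 FPKM after ketamine. These were the only kept members whose groups did not overlap, both higher in L803mts, a pattern that 10.5% of all loci had.

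The NMDA receptor, the target of ketamine, was kept for 2 of its 7 subunit genes. Grin2b, a glutamate-binding subunit, stood at 124, 142 and 168 FPKM after L803mts and at 135, 136 and 143 FPKM after ketamine, and Grin3a at 23.9, 18.8 and 16.7 FPKM after L803mts and 20.6, 16.2 and 15.4 FPKM after ketamine, with overlapping groups in both. Grin1 was not kept because its control means were 67.1 and 51.6 FPKM in the L803mts and ketamine tables, and Grin2a could not be joined. Of 9 AMPA and kainate receptor subunit genes 5 were kept, with Grik5 at a short segment (chr7:25794784-25795301, NCBIM37). Grik5, a kainate receptor subunit, stood at 6.18, 6.51 and 5.67 FPKM after L803mts and at 4.45, 4.03 and 3.24 FPKM after ketamine without overlap (difference 0.54 ± 0.15, SE, limma adjusted p 0.335). Gria1, the most highly expressed kept subunit of the group, stood at 233, 213 and 307 FPKM after L803mts and 185, 230.2 and 263 FPKM after ketamine with overlap.

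Among activity-regulated genes, Npas4 and Egr3 had the higher level in every L803mts library. Of 19 immediate early transcription factor genes 6 were kept, and these 2 had an unadjusted p under 0.05 and groups that did not overlap, beside 5.75% of all loci in that direction. Egr3, a zinc-finger factor induced by calcium and growth factor signals, stood at 5.27, 4.57 and 8.71 FPKM after L803mts and at 3.37, 3.36 and 2.61 FPKM after ketamine (ratio of means 1.98, difference 0.77 ± 0.21, SE, limma adjusted p 0.335). Its control libraries, at 3.36, 3.15 and 3.89 FPKM, overlapped the ketamine libraries and lay below the L803mts libraries. Nr4a2, an orphan nuclear receptor, stood at 39.9, 49.2 and 38.1 FPKM after L803mts and 48.5, 36.4 and 33.1 FPKM after ketamine with overlap, and the differences of Crem, Ier5 and Klf10 lay between -0.09 and 0.06. Members known best from this class were not kept, since the control means of Fos were 6.02 and 10.2 FPKM, of Egr1 3.48 and 4.40 FPKM and of Nr4a1 2.28 and 9.06 FPKM in the L803mts and ketamine tables. The list median was 0.09, beside 0.01 over all loci, and it was -0.01 without ketamine replicate 3 and 0.22 without ketamine replicate 1.

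Of 20 effector genes induced by activity 8 were kept, and they were split. Arl4d, a small GTPase of the ARF family, stood at 6.999, 4.37 and 4.64 FPKM after L803mts and at 3.15, 1.64 and 2.66 FPKM after ketamine. Btg2, an antiproliferative early-response gene, stood at 8.46, 8.46 and 7.85 FPKM after L803mts, at 6.54, 4.90 and 5.19 FPKM after ketamine and at 10.5, 8.30 and 9.92 FPKM in controls. Sik1, a salt-inducible kinase that restrains CREB co-activators, stood at 3.99, 2.46 and 4.51 FPKM after L803mts and at 2.09, 1.75 and 1.20 FPKM after ketamine. These 3 genes had no overlap, as did 10.5% of all loci in that direction, with differences of 0.86 ± 0.22, 0.51 ± 0.14 and 0.78 ± 0.22 (SE) and an adjusted p of 0.335 each in limma. Relative to controls the side differed, with Btg2 lower in every ketamine library than in any control and Sik1 higher in every L803mts library than in any control. The opposite order was seen for Ptgs2, the inducible cyclooxygenase, at 5.79, 7.36 and 7.84 FPKM after L803mts and 7.42, 10.8 and 12.1 FPKM after ketamine, and Nrn1, a neurite growth factor, at 113, 149.6 and 135 FPKM after L803mts and 146, 157 and 187 FPKM after ketamine, both with the higher mean in ketamine, an unadjusted p under 0.05 and groups that overlapped. Homer1, whose short form is induced by activity, stood at 98.6, 109 and 102 FPKM after L803mts and 122.5, 105 and 96.3 FPKM after ketamine. The list median was 0.10.

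Promoter sequence is shown because 5 activity-regulated genes (Npas4, Egr3, Arl4d, Btg2 and Sik1) were higher in every L803mts library and genes of this class are known for cAMP response elements. Entries for 3 of the 5 were found in the RefSeq promoter table (GRCm38.p6, a later build than that of the FPKM tables), and all 3 are printed. Each run covers the 250 bases before the annotated start, 5′ to 3′ on the strand of the gene, and capitals mark TGACGTCA, the full element, and TGACG or its reverse complement CGTCA, the core, which the full element contains on each strand.
Npas4 (chr19:4989972-4990221, minus strand): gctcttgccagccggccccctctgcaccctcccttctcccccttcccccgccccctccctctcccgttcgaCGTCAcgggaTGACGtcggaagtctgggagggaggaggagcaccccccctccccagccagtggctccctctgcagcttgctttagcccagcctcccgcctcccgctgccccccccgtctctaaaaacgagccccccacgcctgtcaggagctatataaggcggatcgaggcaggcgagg
Arl4d (chr11:101665291-101665540, plus strand): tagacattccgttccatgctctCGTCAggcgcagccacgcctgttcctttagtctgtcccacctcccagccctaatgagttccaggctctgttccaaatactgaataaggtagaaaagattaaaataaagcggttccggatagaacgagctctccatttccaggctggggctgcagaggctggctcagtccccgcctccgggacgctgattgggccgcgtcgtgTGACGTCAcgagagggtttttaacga
Btg2 (chr1:134079156-134079405, minus strand): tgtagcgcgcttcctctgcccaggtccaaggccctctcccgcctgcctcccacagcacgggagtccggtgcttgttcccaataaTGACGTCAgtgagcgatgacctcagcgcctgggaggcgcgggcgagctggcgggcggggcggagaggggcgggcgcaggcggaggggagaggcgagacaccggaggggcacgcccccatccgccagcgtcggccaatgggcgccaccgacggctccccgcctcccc
The Arl4d and Btg2 runs each hold 1 full element, and Npas4 holds 2 separate cores. Over 32851 promoter entries of the same length, 1.55% hold the full element and 17.8% the core on either strand. A match in letters is a description and does not show binding. These genes were picked by direction, and promoters of the kept activity-regulated genes without that pattern are not shown. The matches therefore cannot be tied to the higher level in L803mts.

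Neuropeptide and neurotrophin genes were kept at 8 of 22 members, with a median difference of 0.30 and 3 members at an unadjusted p under 0.05, all higher in L803mts and without overlap, beside 5.75% of all loci. Penk, the precursor of enkephalins, stood at 39.3, 11.5 and 18.8 FPKM after L803mts and at 9.27, 9.54 and 11.1 FPKM after ketamine. Adcyap1, the precursor of the neuropeptide PACAP, stood at 4.07, 1.20 and 2.88 FPKM after L803mts and at 1.20, 0.960 and 0.622 FPKM after ketamine, with L803mts replicate 2 above ketamine replicate 1 by less than the rounding. Pdyn, the precursor of dynorphins, stood at 6.35, 2.94 and 3.83 FPKM after L803mts and at 2.25, 2.86 and 1.84 FPKM after ketamine. L803mts replicate 1 was the highest library for all 3 genes, and the list median was -0.02 without it. Scg2, a secretogranin of dense-core vesicles and the most highly expressed kept member, stood at 215, 209 and 163 FPKM after L803mts and 188, 183 and 191 FPKM after ketamine.

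Penk and Pdyn are also markers of striatal projection neurons, and that list was highest in the same library. Of 18 striatal genes 6 were kept, 3 of them (Pde10a, Penk and Pdyn) higher in L803mts with an unadjusted p under 0.05 and no overlap, beside 5.75% of all loci, and the list median was 0.45. The list mean on the log2(FPKM + 1) scale was 3.64 in L803mts replicate 1, against 2.66 to 2.92 in the other treated libraries and 2.75 to 2.85 in the control libraries of the L803mts table. Drd2, the D2 dopamine receptor, stood at 8.17, 2.22 and 1.24 FPKM after L803mts and at 3.81, 2.20 and 2.05 FPKM after ketamine. Pde10a, a striatum-enriched phosphodiesterase, did not follow that library, at 21.8, 17.8 and 22.4 FPKM after L803mts and 15.5, 14.8 and 16.1 FPKM after ketamine. The control means of Pde10a were 18.3 and 16.5 FPKM in the L803mts and ketamine tables, so part of its gap lies between the tables. No striatal defining marker that could be joined was at 0, and the part of striatal tissue in the levels of Penk and Pdyn was not tested.

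Presynaptic genes mostly had the higher fitted level in L803mts. Of 25 synaptic vesicle and release genes 13 were kept, 12 with a fitted difference towards L803mts, 4 at an unadjusted p under 0.05 and 5 without overlap, and the median was 0.28. Over all loci the shares in that direction were 51%, 7.08% and 10.5%. Sv2a stood at 59.5, 45.8 and 61.6 FPKM after L803mts, at 36.8, 34.1 and 36.9 FPKM after ketamine and at 40.03, 39.8 and 50.7 FPKM in controls. Slc17a7, the vesicular glutamate transporter VGLUT1, stood at 65.0, 68.3 and 99.7 FPKM after L803mts and at 55.9, 49.8 and 57.5 FPKM after ketamine, and its controls at 56.3, 65.4 and 91.8 FPKM overlapped both. Cplx1, a complexin that clamps and promotes fusion, stood at 49.2, 44.0 and 75.3 FPKM after L803mts and at 39.2, 36.0 and 39.4 FPKM after ketamine. The synapsin gene Syn2 had a difference of 0.28 ± 0.13 (SE) without overlap, and Snap25, the most highly expressed kept member, 0.08 ± 0.15. L803mts replicate 3 had the highest list mean, 6.47 against 5.91 to 6.20 in the other treated libraries, and without that replicate the list median was 0.14, beside a median of 0.02 over all loci in the same fit.

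Postsynaptic scaffold genes also had their highest list mean in that library. Of 23 genes 13 were kept, with a median of 0.22 that became 0.01 without L803mts replicate 3. Dlgap4, a scaffold of the postsynaptic density, stood at 15.95, 14.2 and 22.4 FPKM after L803mts and at 13.99, 12.8 and 11.3 FPKM after ketamine. Nlgn2, the neuroligin of inhibitory synapses, stood at 15.4, 13.4 and 22.2 FPKM after L803mts and at 14.1, 11.5 and 11.2 FPKM after ketamine. Dlg4, which encodes PSD-95, stood at 55.6, 46.4 and 95.4 FPKM after L803mts and 45.8, 42.6 and 46.7 FPKM after ketamine. In each of these genes L803mts replicate 3 was the highest library.

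Potassium channel genes had a median of 0.09 over the 15 kept of 27. Kcnj2, an inward rectifier, stood at 7.65, 8.35 and 7.38 FPKM after L803mts, at 11.03, 10.8 and 10.2 FPKM after ketamine and at 13.2, 14.5 and 10.1 FPKM in controls, so that the L803mts libraries were the lowest. Kcnk2, a background potassium channel opened by stretch and lipids, stood at 49.6, 30.8 and 58.1 FPKM after L803mts and at 26.0, 34.8 and 31.0 FPKM after ketamine with overlap. Kcnma1, the large-conductance calcium-activated channel, differed by 0.09 ± 0.10 (SE).

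**Figure D3:**
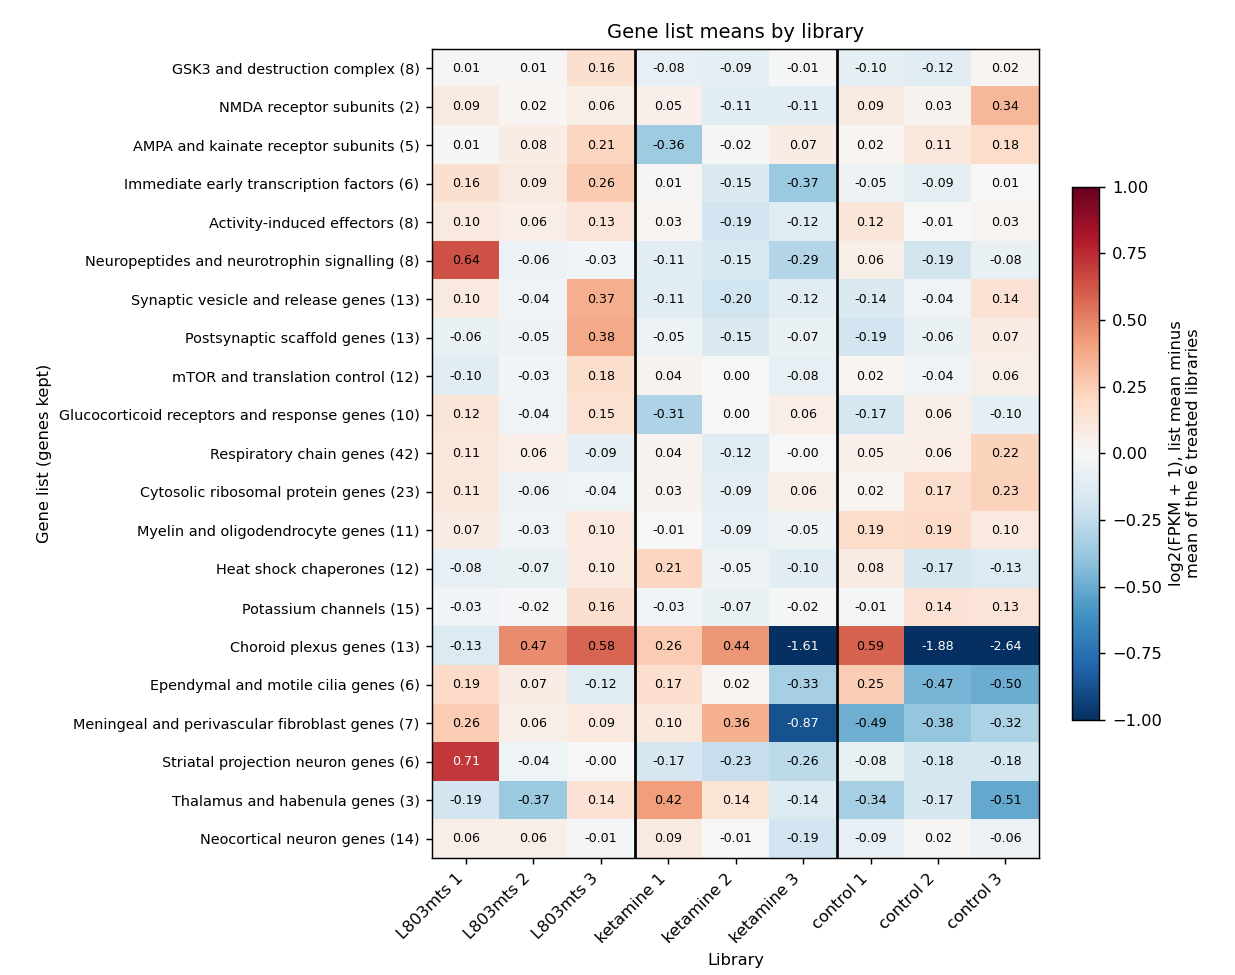
Mean log2(FPKM + 1) of 21 gene lists (rows, kept genes in parentheses) in the 6 treated libraries and the 3 control libraries of the L803mts table (columns), each relative to the mean of the 6 treated libraries. Colours run from blue (lower) to red (higher) and saturate at -1 and 1. Choroid plexus (-1.61) and meningeal (-0.87) genes in ketamine replicate 3 depart from their own group. So do striatal (0.71) and neuropeptide (0.64) genes in L803mts replicate 1.

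Genes of mTOR signalling and translation control had a median of -0.01 over 12 kept of 18, with 6 fitted differences in each direction, and Ddit4 was the member of smallest p. The groups did not overlap at 3 members higher in L803mts (Ddit4, Eef2k and Tsc1) and at 1 higher in ketamine (Rictor), beside 10.5% and 8.65% of all loci. Eef2k, the kinase that inhibits elongation factor 2 and is known from work on ketamine, stood at 4.31, 4.31 and 5.43 FPKM after L803mts and at 3.06, 3.48 and 4.17 FPKM after ketamine. Tsc1, a subunit of the complex that restrains mTOR, stood at 1.64, 1.59 and 1.74 FPKM after L803mts and at 1.40, 1.18 and 0.731 FPKM after ketamine. The Tsc1 locus is a short segment (chr2:28506748-28507964, NCBIM37). Rictor, a defining subunit of mTOR complex 2, differed by -0.07 (unadjusted p 0.441). The groups overlapped at Eef2, the elongation factor, with 166, 127 and 156 FPKM after L803mts and 137, 122 and 125 FPKM after ketamine. Eif4ebp1, a translation repressor controlled by mTOR, was spread widely at 0, 1.64 and 6.21 FPKM after L803mts and 9.52, 7.19 and 2.23 FPKM after ketamine, and replicate 1 of L803mts is listed at 0.

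Of 20 genes of glucocorticoid reception and response 10 were kept, with a median of 0.07. Fitted differences were towards L803mts at 7 of them, beside 51% of all loci, and the groups did not overlap at 4 (Ddit4, Sgk1, Nr3c1 and Errfi1), all higher in L803mts, beside 10.5% of all loci. Sgk1, a kinase induced by glucocorticoids, stood at 41.7, 33.8 and 35.7 FPKM after L803mts, at 18.6, 26.1 and 31.9 FPKM after ketamine and at 22.7, 21.5 and 18.9 FPKM in controls, so both treated means were above the control mean. Nr3c1, the glucocorticoid receptor, differed by 0.16 and Errfi1, an inhibitor of the EGF receptor, by 0.11. The metallothionein genes Mt2 and Mt1 differed by 0.38 and 0.01 with overlap. The 3 members with the higher fitted level in ketamine were Fkbp5, Tsc22d3 and Klf9, at -0.27, -0.21 and -0.20, also with overlap.

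Genes of the respiratory chain and of the cytosolic ribosome were centred near 0. Respiratory chain genes were kept at 42 of 71 members, 5 higher in L803mts and 1 higher in ketamine at an unadjusted p under 0.05, beside 7.08% and 5.35% of all loci, with a median of 0.02. Beside Cox6a1, the flavoprotein subunit Sdha of succinate dehydrogenase stood at 204, 171 and 176 FPKM after L803mts and at 139, 150.2 and 150.2 FPKM after ketamine. The control means of Sdha were 170.3 and 158.4 FPKM in the L803mts and ketamine tables, so part of its gap lies between the tables. Uqcrq, a subunit of complex III, stood at 189, 180.4 and 494 FPKM after L803mts and 160.0, 162 and 142 FPKM after ketamine, with L803mts replicate 3 far above the others. Atp5k, a subunit of ATP synthase, had the opposite order at 183, 175 and 136 FPKM after L803mts and 204, 189 and 215 FPKM after ketamine. Atp5a1, another subunit and the most highly expressed kept member, overlapped at 640.4, 703 and 534 FPKM after L803mts and 664, 665 and 715 FPKM after ketamine. Ribosomal protein genes were kept at 23 of 60 members, with 2 in each direction at an unadjusted p under 0.05 and a median of -0.03. Rpl23 stood at 112, 122 and 92.1 FPKM after L803mts and 138, 137 and 158 FPKM after ketamine, and Rps25 at 34.0, 30.9 and 24.4 FPKM after L803mts and 38.9, 37.4 and 40.1 FPKM after ketamine, both higher in every ketamine library. The control means of Rps25 were 32.7 and 35.6 FPKM in the L803mts and ketamine tables, so part of its gap lies between the tables. The 2 higher in L803mts were Rps2 and Rpl41, with differences of 0.55 and 0.46 and overlapping groups. Rps26, the most highly expressed kept member, stood at 404, 277 and 349 FPKM after L803mts and 258, 270.1 and 313 FPKM after ketamine with overlap.

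Among genes of myelin and oligodendrocytes, 11 of 24 were kept with a median of 0.02. Mbp, myelin basic protein, stood at 487, 404 and 552 FPKM after L803mts, at 379, 313 and 341 FPKM after ketamine and at 500.3, 515 and 492 FPKM in controls. In the ketamine table the same controls stood lower, at 452, 460 and 461 FPKM, so part of the gap lies between the tables. Cnp, a myelin phosphodiesterase, stood at 50.5, 45.6 and 57.9 FPKM after L803mts and at 41.3, 37.5 and 40.2 FPKM after ketamine. Mal, a myelin proteolipid, had the opposite order with a difference of -0.29, and Mog, another myelin gene, differed by 0.02. Heat shock chaperones, 12 kept of 21, had a median of -0.06. Hsp90ab1, a cytosolic HSP90, stood at 441, 379.9 and 778 FPKM after L803mts and at 337, 356 and 344 FPKM after ketamine, whereas the mitochondrial co-chaperone Hspe1 stood at 55.2, 54.3 and 49.0 FPKM after L803mts and 69.3, 65.3 and 63.9 FPKM after ketamine. Hspa4l, an HSP110 family chaperone, stood at 31.0, 32.5 and 27.5 FPKM after L803mts and 38.9, 36.8 and 35.6 FPKM after ketamine, also higher in every ketamine library. The Hspa4l locus is a short segment (chr3:40595733-40596144, NCBIM37).

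Lists of neighbouring tissue varied with single libraries. Choroid plexus genes were kept at 13 of 29 members, all with a fitted difference towards L803mts (51% of all loci) and none with an unadjusted p under 0.05, and the median was 0.59. Clic6, a chloride channel family gene of choroid epithelium, stood at 27.8, 31.2 and 32.8 FPKM after L803mts and 22.5, 29.8 and 3.26 FPKM after ketamine, and Kl, which encodes klotho, at 14.7, 24.5 and 29.1 FPKM after L803mts and 17.9, 21.4 and 7.21 FPKM after ketamine. Ketamine replicate 3 was the lowest of the treated libraries for Ttr, Clic6 and Kl. The list mean was 2.10 in that library against 3.58 to 4.29 in the other treated libraries, and without it the median was -0.01. Controls were spread more widely, with Ttr at 2162, 126 and 16.2 FPKM and list means of 4.31, 1.84 and 1.07 in replicates 1, 2 and 3. The part of choroid plexus RNA in other differences was not tested. Genes of meninges and perivascular fibroblasts, 7 kept of 30, had a median of 0.27 that became -0.25 without ketamine replicate 3. Col6a1, a collagen VI chain, stood at 2.19, 1.48 and 2.65 FPKM after L803mts and at 0.326, 1.05 and 0.526 FPKM after ketamine without overlap, though control replicate 3 reached the highest of the values at 0.502, 0.567 and 3.50 FPKM. The Col6a1 locus is a short segment (chr10:76176622-76178078, NCBIM37). Aebp1, a secreted protein of connective tissue, stood at 6.72, 5.82 and 8.79 FPKM after L803mts and 4.83, 8.03 and 1.77 FPKM after ketamine with overlap. Ptgds, a prostaglandin D synthase of the leptomeninges, stood at 645, 478 and 434 FPKM after L803mts and 667, 552 and 209 FPKM after ketamine.

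Ependymal and motile cilia genes, 6 kept of 24, had a median of 0.09 that became -0.02 without ketamine replicate 3 and 0.27 without ketamine replicate 1. Dnali1, an axonemal dynein light intermediate chain, stood at 3.01, 4.18 and 4.83 FPKM after L803mts and 3.25, 2.78 and 1.31 FPKM after ketamine with overlap (difference 0.57 ± 0.25, SE, limma adjusted p 0.393). Rsph4a, a radial spoke protein, stood at 6.16, 5.86 and 5.65 FPKM after L803mts and 4.98, 5.51 and 4.05 FPKM after ketamine, higher in every L803mts library. Tekt1, a component of ciliary microtubules and the most highly expressed kept member, stood at 9.39, 9.68 and 6.57 FPKM after L803mts and 12.7, 8.70 and 4.85 FPKM after ketamine. Thalamic and habenular genes were kept at 3 of 23 members, with a median of -0.08. Ramp3, a receptor-activity-modifying protein, is listed at 0 in L803mts replicates 1 and 2 and in all 3 controls, and stood at 2.07 FPKM in L803mts replicate 3 and at 2.96, 1.44 and 1.12 FPKM in the ketamine replicates. The groups overlapped at Rora, a nuclear receptor with a difference of 0.16, and at Slc17a6, the vesicular glutamate transporter VGLUT2, with -0.08. Neocortical genes, 14 kept of 22, had a median of -0.01, with Cux1, a homeodomain factor of upper layers, at 84.5, 68.9 and 69.0 FPKM after L803mts and 62.7, 57.0 and 53.0 FPKM after ketamine, and Ctgf, a matricellular protein of the deepest layer, at 13.6, 10.4 and 8.39 FPKM after L803mts and 10.1, 9.29 and 5.27 FPKM after ketamine with overlap. No blood cell gene was kept. The other 15 lists, with 117 places for kept genes, had medians between -0.12 and 0.11 and 9 and 5 places at an unadjusted p under 0.05 in the L803mts and ketamine directions, beside 7.08% and 5.35% of all loci.

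**Figure D4:**
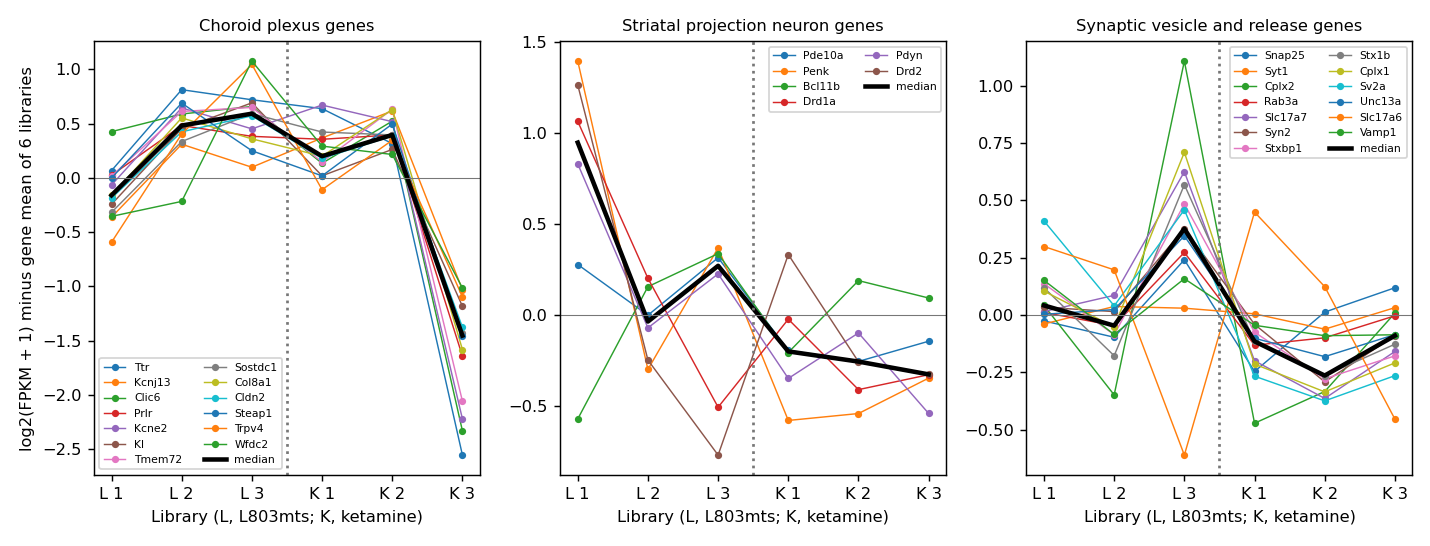
Level of each kept choroid plexus, striatal and presynaptic gene (panels) in the 3 L803mts (L) and 3 ketamine (K) libraries (x axis), as log2(FPKM + 1) minus the mean of the gene over the 6 libraries (y axis). The black line is the median over genes. Choroid plexus genes are low in ketamine replicate 3, most striatal genes are high in L803mts replicate 1, and most presynaptic genes are high in L803mts replicate 3.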

How the data were processed

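Poly(A)-selected, strand-specific libraries were made from mouse hippocampus, per the labels' protocols. The authors deposited, per the file headers, 1 table per treatment against the shared controls, with FPKM per library and, for each locus, the p-value, FDR and log2 fold change of their own test. TopHat2 2.0.9, Cufflinks and Cuffdiff were used, per the submitters' processing notes. The builds GRCh37 and NCBIM37 are listed there without a role. Coordinates reach 152125614 on chromosome 7, past the last GRCm38 gene end of 145324086, and are given as NCBIM37.

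Groups and replicate numbers came from library titles. The table of the siRNA against GSK3β was not used here. Control values per library are those of the L803mts table unless another is named. Loci were joined between tables by gene name, type and reciprocal best overlap, and 13 kept loci whose name had become a date were not matched to lists. The 3 L803mts and 3 ketamine libraries were compared on log2(FPKM + 1) over all kept loci with limma-trend (limma 3.58.1 in R 4.3.3), without a block, with two-sided p-values adjusted by Benjamini-Hochberg. The fit was tested on simulated data. Fold changes on this scale understate changes of low loci. Each list gene was taken at its kept coding or mixed locus of highest level, and lists were described by counts and medians without a test. That locus can be a short segment, or a minor locus of a gene whose highest locus was not kept. Short loci not marked at their genes above include Sik1 (chr17:31980959-31983169), Nlgn2 (chr11:69636594-69638760) and Rora (chr9:68502440-68506469, NCBIM37). Members and lists were chosen with earlier results of these data known.

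Genes were named by a rule: Gsk3a, Gsk3b and NMDA receptor subunits, the 10 loci of smallest p with an official symbol in each direction because none was called, and, of each list described, the 2 members of smallest p and the member of highest level. Other genes named here were chosen after their values were seen. Alternatives were a pseudocount of 0.1, a minimum of 5 FPKM or none, tolerances of 5% and 25%, ketamine values rescaled by the ratio of the control means, a replicate block, and leaving out each library. Read depth is unknown, so no counting intervals are given.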

Additional observations from a re-analysis of the deposited data

How the results depend on the processing

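No locus was called with limma and Benjamini-Hochberg adjustment under the alternatives tried, except with the tolerance on controls at 25% and when either of 2 libraries was left out. At 25%, where 9390 loci were tested, 3 were called (2 higher in L803mts, 1 higher in ketamine), and 926 and 697 loci had an unadjusted p under 0.05 in the L803mts and ketamine directions. Leaving out 1 library at a time gave 0 to 10 calls, 0 to 2 higher in L803mts and 0 to 8 higher in ketamine. The unadjusted counts then ranged from 301 to 662 in the L803mts direction and from 194 to 627 in the ketamine direction. The 10 calls came without L803mts replicate 2, and 3 calls came without ketamine replicate 1. Same-numbered libraries had correlations of their deviations of 0.156, -0.0289 and 0.0363 for numbers 1, 2 and 3. Libraries of different number ranged from -0.118 to 0.0940. These values do not settle whether replicate numbers pair the libraries. With the replicate number as a block, 0 loci were called and 594 and 435 had an unadjusted p under 0.05. List medians moved beyond the spread between libraries in 14 of 357 recomputations. With 25% tolerance the median was 0.34 for immediate early transcription factors and 0.27 for activity-induced effectors, which stood at -0.056 with 5% tolerance and at -0.060 with a minimum of 5 FPKM. Myelin genes stood at 0.087 with ketamine values rescaled to the controls. Over the 6 omissions the medians ranged from -0.034 to 0.27 for AMPA and kainate receptor subunits, from 0.055 to 0.25 for effectors, from -0.018 to 0.45 for neuropeptides, from 0.012 to 0.29 for postsynaptic scaffolds, from 0.040 to 0.097 for myelin genes, from -0.25 to 0.46 for meningeal genes, from -0.043 to 0.11 for neocortical genes and from -0.088 to 0.066 for ribosomal protein genes. Within the spread between libraries, medians also changed sign over the omissions for immediate early transcription factors (-0.011 to 0.22), ependymal genes (-0.022 to 0.27), choroid plexus genes (-0.013 to 0.94), mTOR genes (-0.040 to 0.017), heat shock chaperones (-0.13 to 0.017), thalamic genes (-0.32 to 0.11) and respiratory chain genes (-0.039 to 0.10). Of 1493 values, from 90 results of named genes, 17 changed sign. Genes given above only by a difference, such as Mog, Mt1, Mal, Rictor and Crem, were not among these 90. Over the 6 omissions the sign turned without L803mts replicate 3 for Grin2b (range -0.052 to 0.16), Gria1 (-0.0033 to 0.27) and Rora (-0.012 to 0.35), and without ketamine replicate 3 for Prlr (-0.079 to 0.94) and Ptgds (-0.25 to 0.59). It turned without L803mts replicate 1 for Drd2 (-0.43 to 0.59) and Scg2 (-0.017 to 0.18), and without ketamine replicate 1 for Homer1 (-0.14 to 0.034). Snap25 (-0.026 to 0.16) and Slc17a6 (-0.32 to 0.21) turned without L803mts replicate 3 or ketamine replicate 1, and Tekt1 (-0.29 to 0.32) without L803mts replicate 1 or 2 or ketamine replicate 3. With rescaled ketamine values Homer1 (0.0028) and Scg2 (-0.0063) turned. The cause was not tested in any of these cases. The number of libraries, and a read depth that is unknown, limit what could be resolved.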
